A study of Mus musculus with 8 samples.

Results

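The genes described are the 6 nucleoside diphosphate kinases that the table lists as NME1, NME2, NME3, NME4, NME6 and NME7. They were chosen by name from 16974 genes listed at 1 or more time points, of which 15894 had values at all 4. All 6 members were among these, and none was lost to a filter. They were chosen by a working rule that read their level in each library and their change with HU210, with earlier results of these data known. Their levels and changes are therefore a description, and no test was made of them.

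The cells were Neuro2A (N2A), an established line from a mouse neuroblastoma that puts out neurites, and HU210 activates CB1R, the cannabinoid 1 receptor. The cells of every group were first kept for 16 h in serum-free medium. They then received either 2 µM HU210 in DMSO or DMSO without drug, and were harvested after 2 h, 4 h, 6 h or 8 h, so that each of 8 conditions had its own library. Each library was 1 pool of mRNA from 2 to 3 experiments, so no condition had a replicate and no difference at a time point has an error. The DMSO libraries differ in hour, and their range is used only to describe how far control libraries lay apart. Levels are FPKM, the fragments of an mRNA per kilobase of its length, scaled by the authors to the upper quartile of the library, and the log2 change is the log2 of (FPKM + 1) in HU210 over (FPKM + 1) in DMSO of the same hour. In bulk mRNA, fewer cells with a transcript and less transcript per cell cannot be told apart.

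Nucleoside diphosphate kinases pass the terminal phosphate of ATP, by way of a histidine in their active site, to other nucleoside diphosphates, and so refill GTP, CTP, UTP and the deoxynucleotides. Nme1 and Nme2 are the main cytosolic enzymes and assemble into mixed hexamers; Nme1, known as NM23, was found as a suppressor of metastasis, and Nme2 is also known as a DNA-binding protein and a histidine kinase of other proteins. Nme3 is tied to the outer membrane of mitochondria, Nme4 and Nme6 lie inside mitochondria, and Nme7 belongs to the γ-tubulin ring complex, which starts microtubules.

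The active-site coding stretches are shown because they carry what the family shares and show how alike Nme1 and Nme2 are. Each runs 5′ to 3′ on the coding strand of mm9 and begins at the conserved asparagine codon. Capitals mark the codon of the histidine that takes the phosphate in a classical member, at the same place in the pattern. Nme7 has a pair of kinase domains and holds the pattern in each. The stretches lie at chr11:93820806-93820826 (Nme1, minus strand, coding exon sequence of exon 5), chr11:93811339-93811359 (Nme2, minus, exon 5), chr17:25034160-25034180 (Nme3, plus, exon 5), chr17:26229076-26229096 (Nme4, minus, exon 5), chr9:109744583-109744967 (Nme6, plus, shown spliced across the intron between exons 6 and 7) and, for Nme7 on the plus strand, chr1:166275516-166275536 (exon 6) and chr1:166333164-166333184 (exon 11).
Nme1: aacatcattCATggcagcgat
Nme2: aacatcattCATggcagtgat
Nme3: aatgtaattCATggcagcgac
Nme4: aacgtcatcCATgctagcgat
Nme6: aatactaccCATggctcagac
Nme7, exon 6: aatgcagctCACggccctgat
Nme7, exon 11: aatgctgttCATtgcacggat
The stretches of Nme1 and Nme2 differed at 1 of 21 bases. Nme1 differed from Nme3 at 4 and from Nme4 at 4, from Nme6 at 9, and from the stretches of Nme7 at 10 and 8. Over the whole coding sequence, Nme1 and Nme2 were identical at 367 of 459 aligned bases, and the longest identical run was 29 bases. Nme3 was identical with Nme1 at 69.6% and with Nme2 at 70.4% of aligned bases.

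Nme1 (ENSMUSG00000037601, chr11:93818293-93829835) and Nme2 (ENSMUSG00000020857, chr11:93811128-93817573) lie head to tail on the minus strand of mm9, with 719 bp between them. Nme1 is upstream. GENCODE vM1 places a read-through transcript of 991 nt and 8 exons over both genes, under an identifier of its own (ENSMUSG00000091228). It holds 11.7% of the 32-base stretches in the exons of Nme1 and 47.8% of those of Nme2, and its own level was not analysed here. The annotated Nme1 transcripts are of 3181 nt, 493 nt and 452 nt, and the longest has a 3′ untranslated region of 2417 nt, so its FPKM depends on which of them the reads were assigned to.

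**Figure D1:**
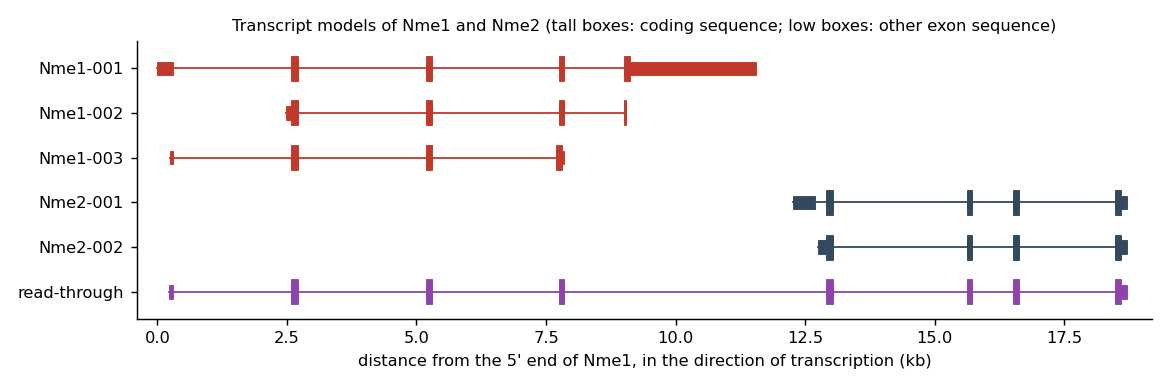
Transcript models of Nme1 and Nme2 in the GENCODE vM1 annotation, by distance in kb from the 5′ end of Nme1 in the direction of transcription. Tall boxes are coding sequence, low boxes are other exon sequence and lines are introns; the read-through model joins exons of Nme1 to those of Nme2, which starts 719 bp after the end of Nme1.

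Nme1 and Nme2 shared no stretch of 32 bases with each other in their exons. The 2 genes differed in how many of their exon stretches occur again elsewhere in the genome. For Nme2 this was 454 of 1139 (39.9%), most of them in 3 regions, on chr8:72534330-72534956, chr5:150463227-150463853 (the pseudogene Gm5566) and chr10:83771649-83772194. For Nme1 it was 9 of 3338 and for Nme6 31 of 1426, the latter in the pseudogene Gm12653, while Nme3, Nme4 and Nme7 had 0. The level of Nme2 is therefore uncertain where reads could have been placed in those copies. Nme3 (ENSMUSG00000073435, chr17:25033445-25034467, plus strand) overlaps Mrps34 on the same strand and Mapk8ip3 on the other, and its level is uncertain for that reason. The other members are Nme4 (ENSMUSG00000024177, chr17:26228679-26232453, minus), Nme6 (ENSMUSG00000032478, chr9:109735263-109745630, plus) and Nme7 (ENSMUSG00000026575, chr1:166243010-166334805, plus).

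Nme1 and Nme2 each have starts of their own in RefSeq. The 250 bases before the more upstream of the RefSeq starts of each gene are shown because the genes adjoin and moved in opposite directions below. They are on GRCm38.p6, minus strand, at chr11:93968273-93968522 for Nme1 and chr11:93956257-93956506 for Nme2, and capitals mark an E-box.
Nme1, upstream start: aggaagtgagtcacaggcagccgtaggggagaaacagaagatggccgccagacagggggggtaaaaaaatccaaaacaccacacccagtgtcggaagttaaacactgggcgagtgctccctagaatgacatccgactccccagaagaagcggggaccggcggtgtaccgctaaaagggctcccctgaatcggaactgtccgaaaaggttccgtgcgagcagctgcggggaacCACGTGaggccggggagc
Nme2, upstream start: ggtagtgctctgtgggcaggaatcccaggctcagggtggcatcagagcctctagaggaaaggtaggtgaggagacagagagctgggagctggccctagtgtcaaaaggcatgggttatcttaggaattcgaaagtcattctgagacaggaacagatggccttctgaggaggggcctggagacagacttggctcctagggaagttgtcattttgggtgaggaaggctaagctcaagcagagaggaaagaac
The E-box CACGTG, read on both strands, occurred once in each of the 2 RefSeq promoter windows of Nme1 (250 bases before to 50 after the start) and in none of the windows of the other members. It occurred in 7.15% of all 32851 RefSeq windows of that length. The Sp1 box GGGCGG occurred 4 times in the downstream window of Nme2, 2 times in Nme3 and once each in Nme4 and Nme7, and in 35.7% of all windows. The CCAAT box occurred once in the window of Nme6 and 3 times in that of Nme7, and in 37.4% of all. The cyclic AMP element TGACGTCA, the STAT site TTCNNNGAA and the TATA box TATAAA were found in no member's window, beside 1.79%, 8.30% and 13.6% of all windows. These are matches of letters, and binding was not measured.

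Of the series as a whole, 11 of 14 markers of neuroblastoma and sympathetic neurons had an FPKM of at least 1 in all 8 libraries, led by Stmn2, Chgb and Hand2. Nefl and Nefm, of the neurofilaments, were near 0 and Dbh lay between 0.727 and 1.44. The summed markers ranged from 508 to 646 FPKM in HU210 and from 529 to 604 in DMSO, and the 4 markers of other cells (Cd68, Col1a1, Gfap, Pecam1) summed to 1.56 to 2.18 and 1.49 to 1.95. The median log2 change over expressed genes was between -0.08 and 0.06 at the 4 time points. The 4 h DMSO library stood apart from the other DMSO libraries. Over 10903 genes that reached an FPKM of 1 in every library, 10.1% were higher in it by 1.3-fold or more than the mean of the other 3 and 3.87% were lower, against 1.91% to 3.35% higher and 2.27% to 5.81% lower in the others. The 4 h HU210 library, set against the mean of the other HU210 libraries, had 2.40% of these genes higher and 7.13% lower. In the other HU210 libraries these shares were 1.86% to 4.93% and 1.28% to 4.49%. At 4 h the log2 change also had a Spearman correlation of 0.51 with the GC content of the exons, across genes, which are not independent replicates; at the other time points it was between -0.28 and 0.15. The 4 h changes of the members are therefore also given with the average of the DMSO libraries of 2, 6 and 8 h as the reference. For the other genes named they are given singly, as a range or as a count, and not for all.

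In DMSO the 6 mRNAs spanned a wide range of levels per length. The order was Nme1, Nme2, Nme6, Nme4, Nme7 and Nme3. Nme1 averaged 258 FPKM ± 91.6 (SD over 4 DMSO libraries of different hours), 7.15 times Nme2 at 36.1 ± 4.37, and ranked between place 177 and place 515 among the listed genes. Nme6 averaged 25.4 ± 3.43, Nme4 12.3 ± 1.01, Nme7 9.45 ± 2.74 and Nme3 4.22 ± 0.215. Neighbours in this order had ranges that lay apart, except Nme4 and Nme7, where Nme4 was higher in 3 of 4 DMSO libraries and the ranges overlapped. Nme1 thus made up most of the summed level of the 6 mRNAs, from 59.3% in the 4 h DMSO library to 86.4% in the 2 h HU210 library. The place of Nme2 and its ratio to Nme1 are uncertain. Of the 32-base exon stretches of Nme2, 39.9% occur elsewhere in the genome and 47.8% in the read-through model. For Nme1 these shares are 0.27% and 11.7%. How far the ratio depends on the placing of reads was not tested.

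Nme1 was the member that moved most. In HU210 its level was 466, 355, 284 and 259 FPKM at 2, 4, 6 and 8 h, lower at each later hour. In DMSO it was 334, 132, 317 and 247 FPKM at the same hours. The 2 h HU210 library was the highest of the 8 and the 4 h DMSO library the lowest. The log2 changes were 0.48 (2 h), 1.42 (4 h), -0.16 (6 h) and 0.07 (8 h).

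The 2 h and 4 h changes of Nme1 differed in how they stood to the control libraries. At 2 h the HU210 level was 1.39 times that of the same-hour DMSO library, which was itself the highest of the 4. At 4 h it was 2.68 times that of DMSO, and 1.06 times the highest DMSO library. With all 4 DMSO libraries averaged as the reference, the log2 change was 0.94 (2 h) and 0.55 (4 h). With the 4 h library left out of that average, it was 0.65 (2 h) and 0.26 (4 h), the latter below the 1.3-fold line. The 4 h change was thus larger than the 2 h change against DMSO of the same hour, and smaller against both averages.

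**Figure D2:**
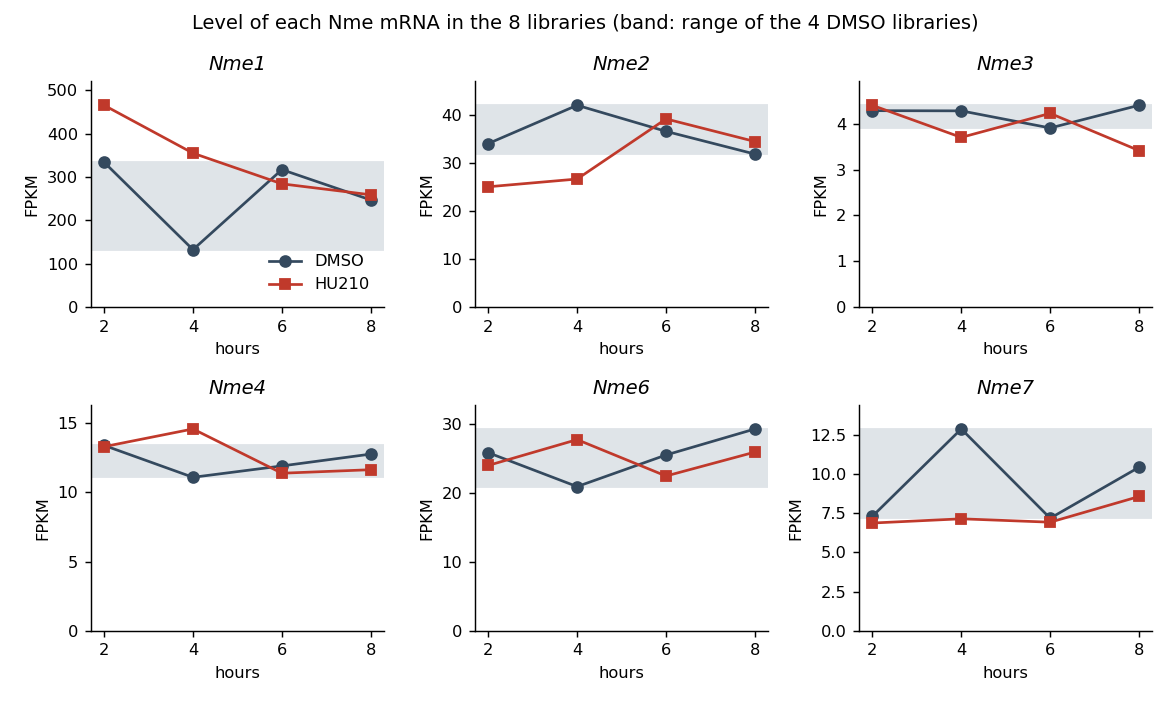
FPKM of each of the 6 mRNAs against hours after addition, 1 point per library, with HU210 as squares, DMSO as circles and the band showing the range of the 4 DMSO libraries. Nme1 with HU210 went from 466 at 2 h to 259 at 8 h, while the 4 h DMSO library was the lowest point for Nme1, Nme4 and Nme6 and the highest for Nme2 and Nme7.

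Nme2, the partner of Nme1 in the hexamer, moved the other way at the early hours. In HU210 it stood at 25.0, 26.6, 39.1 and 34.4 FPKM at 2, 4, 6 and 8 h. In DMSO it was at 34.0, 42.0, 36.5 and 31.8 FPKM. The HU210 libraries of 2 h and 4 h lay below all 4 DMSO libraries, and those of 6 h and 8 h lay within their range. The log2 changes were -0.43 (2 h), -0.64 (4 h), 0.10 (6 h) and 0.11 (8 h). Without the 4 h DMSO library the changes were -0.43 at 2 h and -0.34 at 4 h, the latter short of 1.3-fold, though both HU210 libraries stayed below the lowest DMSO library.

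The balance of Nme1 and Nme2 moved with both. Nme1 was 18.6 times Nme2 at 2 h and 13.3 times at 4 h with HU210, and 7.27 and 7.53 times at 6 h and 8 h. In DMSO it was 9.83, 3.16, 8.68 and 7.77 times. The HU210 libraries of 2 h and 4 h were thus above every DMSO library in this ratio. Since reads of the read-through transcript could go to either gene, the sum was also followed. The sum is not free of how reads were divided, since FPKM is per length and the exons span 3342 bp in Nme1 and 1171 bp in Nme2. Reads assigned to the read-through identifier itself would be in neither term. It was 491, 382, 323 and 293 FPKM with HU210 and 368, 174, 354 and 279 FPKM with DMSO, at 2, 4, 6 and 8 h. Its log2 change was 0.41 at 2 h and 1.13 at 4 h, and 0.20 at 4 h against the 3 other DMSO libraries.

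Nme3, the lowest of the 6, stayed within a narrow range. Its DMSO levels were 4.28, 4.28, 3.91 and 4.40 FPKM and its HU210 levels 4.40, 3.70, 4.23 and 3.41. The 4 h and 8 h HU210 libraries were below all DMSO libraries, and the log2 change was -0.17 and -0.29 there, neither past 1.3-fold. At 2 h and 6 h it was 0.03 and 0.09. The 4 h change was -0.14 without the 4 h DMSO library.

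The mitochondrial members Nme4 and Nme6 stood highest relative to DMSO at 4 h. Nme4 was at 13.4, 11.1, 11.9 and 12.8 FPKM in DMSO and at 13.3, 14.6, 11.4 and 11.6 with HU210. Its 4 h HU210 library was the highest of the 8 and its 4 h DMSO library the lowest, for a log2 change of 0.37, which was 0.19 without that DMSO library. Nme6 was at 25.8, 20.9, 25.5 and 29.3 FPKM in DMSO and at 24.0, 27.7, 22.4 and 25.9 with HU210. All 4 HU210 levels of Nme6 lay within the DMSO range, and its log2 change of 0.39 at 4 h became 0.05 without the 4 h DMSO library. At 2, 6 and 8 h the changes of Nme4 and Nme6 were between -0.18 and -0.01.

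Nme7, the microtubule-associated member, was lower with HU210 at 4 h. Its DMSO levels were 7.30, 12.9, 7.18 and 10.4 FPKM, the most variable after those of Nme1, and its HU210 levels were 6.87, 7.14, 6.93 and 8.57. The HU210 libraries of 2, 4 and 6 h lay just below the lowest DMSO library. The log2 change was -0.08, -0.77, -0.05 and -0.26 at 2, 4, 6 and 8 h, and that of 4 h was -0.17 without the 4 h DMSO library.

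Counted at 1.3-fold, the smaller of the folds the study uses and here without its false discovery condition, 6 of 24 member changes were past the line (log2 of 0.38), all at 2 h and 4 h. At 2 h Nme1 was higher and Nme2 lower, beside 1.61% of all listed genes higher and 3.30% lower. At 4 h Nme1 and Nme6 were higher and Nme2 and Nme7 lower, beside 6.61% higher and 14.5% lower. At 6 h and 8 h 0 of 6 members were past it, beside 5.14% and 3.72% of genes higher and 1.81% and 1.48% lower. The values nearest to the line were Nme6 at 4 h (0.39) just inside and Nme4 at 4 h (0.37) just outside. With the 4 h DMSO library left out of the reference, Nme1 was still higher and Nme2 lower at 2 h, beside 1.80% and 3.48% of the genes that reached an FPKM of 1 in all libraries, and 0 members were past the line at 4 h, beside 1.29% higher and 2.96% lower. Over the 4 hours, each paired with DMSO of its own hour, the mean log2 change was 0.45 ± 0.69 (SD, n = 4 hours) for Nme1, -0.21 ± 0.38 for Nme2 and -0.29 ± 0.33 for Nme7. For Nme3, Nme4 and Nme6 the mean was between -0.08 and 0.04. Nme7 was lower with HU210 at 4 of 4 hours and Nme1 higher at 3 of 4. These signs depend on the reference. Against the average of the DMSO libraries of 2, 6 and 8 h, Nme7 was at -0.22, -0.17, -0.21 and 0.06. Nme1 was at 0.65, 0.26, -0.06 and -0.20, in the same order of hours. The share of all genes with 1 sign at every hour was not computed.

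Counted by the range of the 4 DMSO libraries, 10 of 24 HU210 values lay outside it. At 2 h these were Nme1 above and Nme2 and Nme7 below, beside 36.0% of 15894 genes outside in either direction. At 4 h they were Nme1 and Nme4 above and Nme2, Nme3 and Nme7 below, beside 38.4%. At 6 h Nme7 and at 8 h Nme3 were below, beside 29.0% and 24.5%. Since the members were chosen by these values, nothing is read from how their counts compare with those shares. Without the 4 h DMSO library, 15 of 24 values lay outside. Leaving out a library can only narrow the range, so this count could not fall, and nothing is read from its rise. The share of all genes outside the narrower range was not computed.

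**Figure D3:**
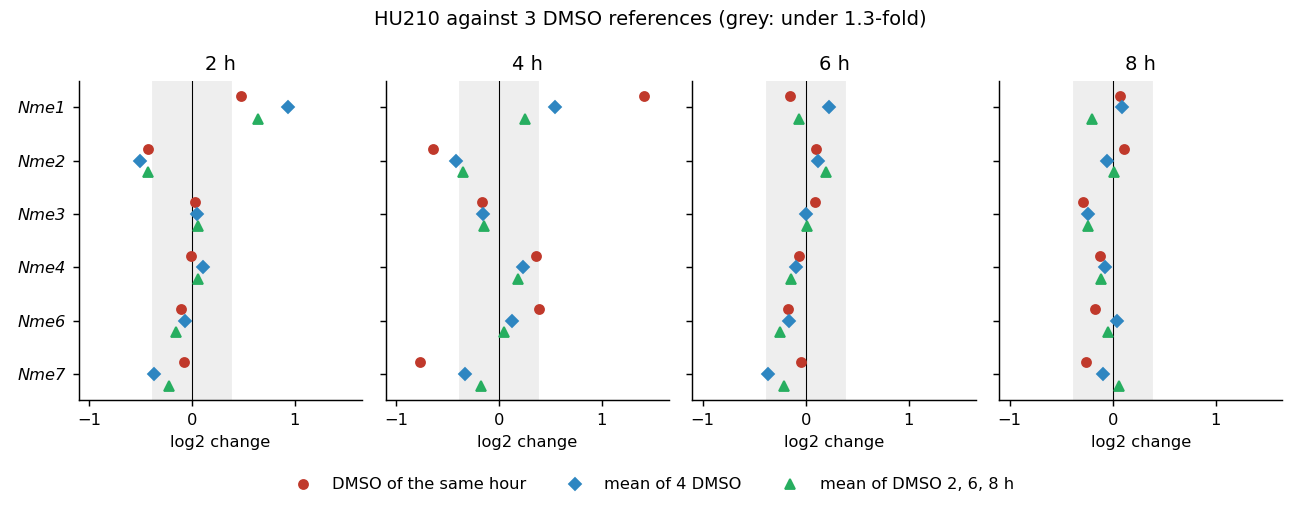
Log2 change of each member with HU210 at each hour, with DMSO of the same hour as reference (circles), all 4 DMSO libraries averaged (diamonds) or those of 2, 6 and 8 h averaged (triangles), with changes under 1.3-fold in grey. At 4 h the circles of Nme1 (1.42), Nme2 (-0.64), Nme6 (0.39) and Nme7 (-0.77) lie outside the grey band and all triangles inside it, and at 2 h all 3 marks of Nme1 and of Nme2 lie outside.

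Across the 8 libraries the members did not move as one. The Pearson correlation of log2(FPKM + 1) was -0.90 between Nme1 and Nme7, -0.85 between Nme2 and Nme4 and -0.76 between Nme1 and Nme2, and it was 0.68 between Nme1 and Nme4 and 0.64 between Nme4 and Nme6. These are descriptions over 8 libraries, which share time points between treatments and include the 4 h DMSO library.

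Each member had other genes close to it in profile. The measure was the root mean square distance between profiles of log2(FPKM + 1), each centred on its own mean, over the 8 libraries and 10902 other genes. The closest to Nme1 were Gm8163 (0.16), Rpsa-ps5, Rpl5 (0.17), Gm11824 and Fyb, of which 3 are annotated as pseudogenes. Rpl5, a protein of the large ribosomal subunit, was at 696, 348, 621 and 539 FPKM in DMSO and at 818, 747, 515 and 520 with HU210, so that it too was lowest in the 4 h DMSO library and highest in the 2 h HU210 library. Its 4 h log2 change of 1.10 became 0.28 without the 4 h DMSO library, and those of the other 4 genes, 0.94 to 1.19, became 0.17 to 0.33.

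The closest to Nme2 were Hist1h2br (0.06), Hist1h2bq, Hist1h4i, Hist1h2bg and Gadl1, and 4 of these 5 encode histones. Hist1h2bg was at 10.2, 12.4, 9.26 and 9.32 FPKM in DMSO and at 7.57, 7.72, 11.1 and 9.20 with HU210. Like Nme2, it was below all DMSO libraries at 2 h and 4 h and within their range at 6 h, though just below it at 8 h. The 4 h log2 changes of the 4 histone genes were between -0.37 and -0.28 without the 4 h DMSO library, and that of Gadl1 was -0.53. Histone mRNAs come in many near-identical copies, so their levels are uncertain too.

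The closest to the other members were Idh1 and Gm15362 for Nme3, Tubb2c and Wrap53 for Nme4, Olfr222 and Gm8522 for Nme6, and Gm10119 and Phb for Nme7. Phb, prohibitin of the inner mitochondrial membrane, had a log2 change of -0.61 at 4 h, which was -0.08 without the 4 h DMSO library. The closest genes depend on the measure. By correlation instead of distance, 0 of the 5 were shared for Nme1 and for Nme2, 0 of the 2 for Nme6 and for Nme7, and 1 of the 2 for Nme3 (Idh1) and for Nme4 (Wrap53). For Nme2 the genes differed but histone genes recurred. The closest by correlation were the histone genes Hist1h4b, Hist1h2bb, Hist1h4n and Hist1h4j, and Lars2.

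**Figure D4:**
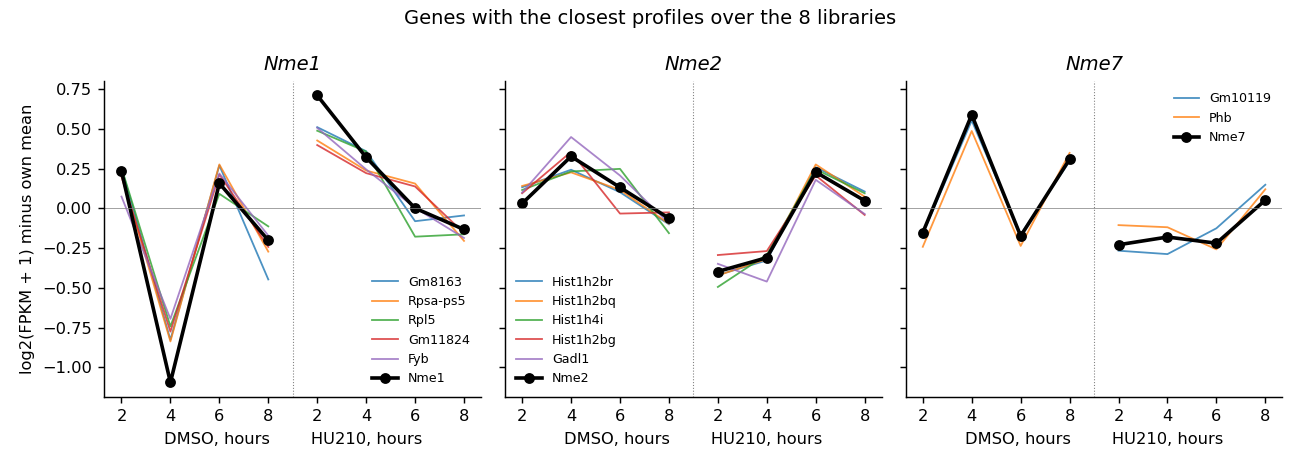
Profiles of Nme1, Nme2 and Nme7 (black) and of the genes closest to them (colors), as log2(FPKM + 1) minus each gene's mean over the 8 libraries, with DMSO on the left and HU210 on the right of each panel. The genes near Nme1 have their minimum in the 4 h DMSO library, and those near Nme7 have a maximum there.

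Of 20 neighbors, the nearest expressed genes on each side of the members, 5 were past 1.3-fold at any hour, beside 34.5% of the 10903 genes. Utp18, needed for ribosome assembly and lying beyond Mbtd1 on the side of Nme2, had log2 changes of -0.87 at 4 h, the same sign as Nme2, and 0.68 at 6 h. Mbtd1, between it and Nme2, was between -0.32 and 0.19 throughout. On the side of Nme1, Spag9 reached 0.38 and Gm11518 -0.50 at 6 h, and neither was past 1.3-fold at 2 h or 4 h. The others were Eme2 beside Nme3 (0.41 at 8 h) and Atp1b1 beside Nme7 (-0.55 at 4 h, the same sign as Nme7, and 0.46 at 6 h). Without the 4 h DMSO library, Utp18 was at -0.13 and Atp1b1 at 0.00 at 4 h, and 0 of these 5 neighbors were past 1.3-fold at any hour, the farthest being Atp1b1 at 6 h (0.36). With that reference 12.8% of the 10903 genes were past the line at any hour. The other neighbors were not followed with it.

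Of further genes with a domain of this family, Nme5 was between 0.0 and 0.198 FPKM in all libraries. Rp2, whose product carries such a domain and acts on small G proteins of the cilium, was between 1.71 and 2.47 FPKM, and neither was past 1.3-fold at any hour. Nme8 and Nme9 were not analysed here.

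Enzymes that make, use or remove the substrates of the Nme kinases were followed as lists, 64 genes in all. At 2 h 1 of them was past 1.3-fold, Paics of purine synthesis (-0.41). That is 1.72% lower and 0 higher of the 58 that reached an FPKM of 1 in both treatments. Of all such genes, 3.71% were lower and 1.33% higher. At 4 h 7 were higher and 13 lower, which is 12.3% and 22.8% of the 57 that reached an FPKM of 1 in both treatments, beside 8.90% and 19.8% of all such genes. At 6 h 4 were higher (7.02%) and 0 lower, beside 6.26% and 1.44%, and at 8 h 0 were past it, beside 4.11% and 1.29%. Without the 4 h DMSO library in the reference, none of these 25 changes was past 1.3-fold. Over all 64 genes with that reference, 1 was lower and 0 higher at 2 h. The shares were 3.48% and 1.80% of the genes that reached an FPKM of 1 in all libraries. The lower gene was Guk1, a monophosphate kinase at 64.0 FPKM with HU210, against a DMSO range of 80.1 to 95.4. Its change against DMSO of the same hour was -0.37. At 4, 6 and 8 h, 0 of the 64 were past the line with that reference. The median log2 change of the 64 genes was -0.04, -0.03, 0.11 and 0.01 at 2, 4, 6 and 8 h, beside -0.02, -0.01, 0.02 and 0.02 over all listed genes.

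Of the 4 h changes, deoxynucleotide synthesis had 3 of 8 genes lower and 0 higher, beside 19.8% and 8.90% of all expressed genes. The median log2 change of this list was -0.30. That median was -0.15 with all 4 DMSO libraries averaged, -0.07 without the 4 h one and -0.11 once its trend with exon GC and length was taken out. Dut, which removes dUTP, was at 63.2 FPKM against 98.0 (-0.62), Rrm2, a subunit of ribonucleotide reductase, at 27.1 against 39.5 (-0.53) and Rrm2b at 2.97 against 4.29 (-0.42). The monophosphate kinases, which supply the diphosphates, had Ak1 higher (0.46) and Cmpk1 (-0.80) and Ak3 (-0.45) lower. Cmpk1 phosphorylates CMP and UMP. In pyrimidine synthesis Dhodh was higher (37.0 against 19.1 FPKM, 0.92) and Ctps2, which makes CTP from UTP, lower (-0.44). In purine synthesis Impdh1, on the way to GTP, was higher (0.51) and Prps1 (-0.87) and Adss (-0.52) lower.

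Salvage and breakdown split likewise. Among the nucleoside kinases and salvage enzymes Tymp was higher (0.89), and Dck (-0.74), Uck2 (-0.63) and Hprt (-0.48) were lower. Among nucleotidases and triphosphate phosphatases Nudt1 (0.67), Nt5c3b (0.52) and Dctpp1 (0.42) were higher, and Nt5c2 (-0.66) and Nt5c3 (-0.65) lower. Without the 4 h DMSO library, the 4 h changes farthest from 0 among these 20 genes were Tymp (0.32), Rrm2b (-0.30) and Dck (-0.30), and Dhodh, Prps1 and Cmpk1 were at 0.16, -0.11 and -0.18. The 4 genes higher at 6 h were Dut (0.59), Cmpk1 (0.56), Dck (0.42) and Rrm2b (0.41), each of which had been lower at 4 h against its own DMSO library. At 6 h they were between 0.23 and 0.34 without the 4 h DMSO library.

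**Figure D5:**
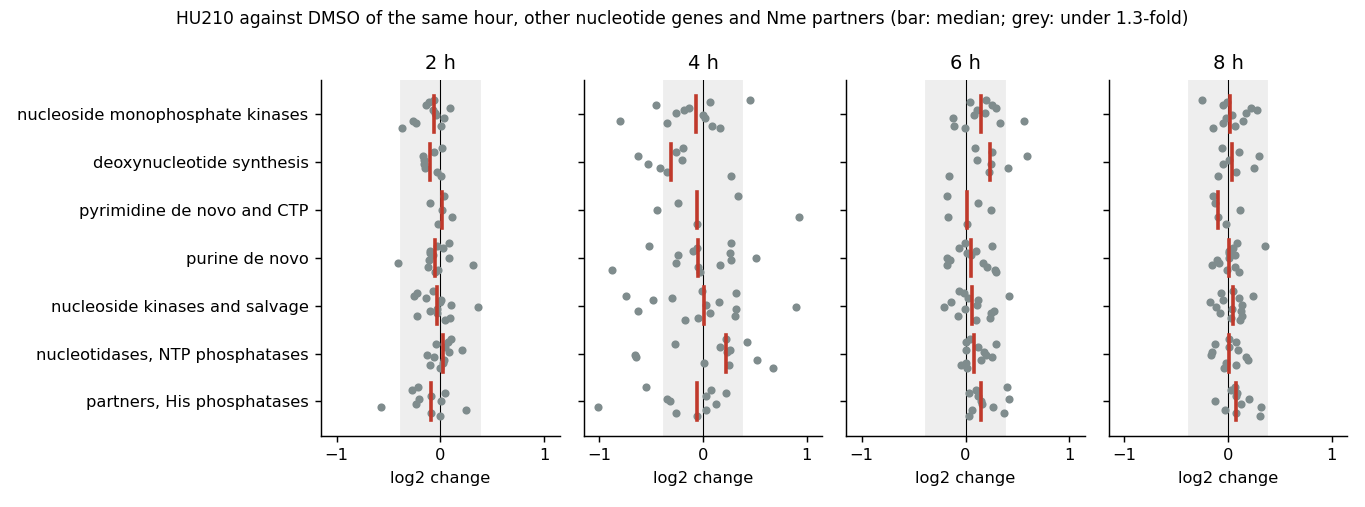
Log2 change with HU210 against DMSO of the same hour for each gene of the 6 nucleotide lists and of the list of Nme partners and histidine phosphatases, with the list median as a bar and changes under 1.3-fold in grey. Points spread most at 4 h, where 7 of the 64 nucleotide genes are higher and 13 lower, and at 8 h none of them is outside the grey band.

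Among 11 partners of the Nme proteins and phosphatases of phosphohistidine, Phpt1 moved most. Phpt1 removes phosphate from histidine, the residue that Nme kinases phosphorylate. It was at 17.2 FPKM against 26.1 at 2 h (-0.57) and at 15.6 against 32.5 at 4 h (-1.02), and both HU210 levels were below the lowest DMSO library (17.8). At 6 h and 8 h its log2 change was 0.26 and 0.31. Leaving out the 4 h DMSO library, it was -0.32 (2 h), short of 1.3-fold, and -0.46 (4 h), past it. Anp32a, which with Nme1 belongs to the SET complex, was lower at 4 h (-0.55) and higher at 6 h (0.40), and Gnb1, a G-protein β subunit that is a substrate of Nme2, was higher at 6 h (0.42). None of these was past 1.3-fold without the 4 h DMSO library (-0.07, 0.30 and 0.25). Of the 11 genes, 1 was lower at 2 h (9.09%), 2 were lower at 4 h (18.2%) and 2 were higher at 6 h (18.2%). At each of these hours 0 were past the line in the other direction. The shares of all expressed genes were 3.71% lower at 2 h, 19.8% lower at 4 h and 6.26% higher at 6 h. All 11 had a positive change at 6 h, with a median of 0.15, beside 66.0% of the 10903 genes. Once the trend with exon GC and length was taken out, that median was 0.07 and Prune1 was at -0.01. In the γ-tubulin ring complex, where Nme7 sits, Cdk5rap2 was higher at 4 h (0.65) and Mzt1 at 6 h (0.43), and the other 9 of 11 genes were not past 1.3-fold at any hour. These are 1 of 11 at each hour, beside 8.90% and 6.26% of genes higher. They were at 0.09 and 0.29 without the 4 h DMSO library, both short of the line.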

How the data were processed

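The authors mapped the reads to mm9 with TopHat2 2.0.8, Bowtie2 2.1.0 and SAMtools 0.1.7. They computed FPKM with Cufflinks and Cuffdiff, whose version is not given in the sources used here, with upper-quartile normalization and correction of fragment bias and of reads with several places. The deposited FPKM carry an added 1, which was subtracted. The authors' log2, p-value and q-value columns and their table of called genes hold their own comparisons and were not used. Total counts were not used, so how precise an FPKM is stays unknown. The log2 change has a pseudocount of 1 and understates changes of low genes.

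With 1 library per condition, no test was made. The members and lists were chosen with earlier results of these data known. The genes named are all members, the family's other genes, list genes past 1.3-fold that reached an FPKM of 1 in both treatments, the nearest expressed neighbors, and the genes closest in profile (5 for Nme1 and Nme2, 2 for the others).

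Positions, transcripts and GC content are from GENCODE vM1 on mm9, and promoter windows from RefSeq on GRCm38.p6. All 6 members matched both. Alternatives were another pseudocount, a mean DMSO reference, centering, a loess trend on GC and length (span 0.3, degree 1), a larger fold and leaving out each DMSO library. The reference without the 4 h DMSO library was added after seeing the data. The steps were tested on simulated data. Python 3.11.15, numpy 2.4.6, pandas 2.3.3, scipy 1.17.1, matplotlib 3.10.9 and R 4.3.3 were used.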

Additional observations from a re-analysis of the deposited data

Results flagged for a closer look

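For 3 members, a change past 1.3-fold with HU210 at 1 hour stood beside a change of the opposite sign at another, which was not tested, since each hour has 1 library per treatment. For Nme1, the log2 change of 1.42 at 4 h and that of -0.16 at 6 h differed by 1.57. For Nme2, the log2 change of -0.64 at 4 h minus that of 0.11 at 8 h was -0.75. For Nme6, the log2 change of 0.39 at 4 h and that of -0.18 at 6 h differed by 0.57. All 3 involve the 4 h DMSO library, which was the lowest of the 8 libraries for Nme1 and Nme6 and the highest for Nme2. With the mean of the other 3 DMSO libraries as reference, the log2 change at 4 h was 0.26 for Nme1, -0.34 for Nme2 and 0.05 for Nme6.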

How the results depend on the processing

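Of 120 recomputed log2 changes of members, 97 moved by less than the SD of the DMSO libraries, 23 moved by more and 0 reversed while past 1.3-fold. That SD, of log2 levels, includes the 4 h DMSO library and was widest for Nme1 (0.61) and Nme7 (0.37). Nme1 at 2 h therefore counts as unmoved although it went from 0.48 to 0.94 with the mean of the 4 libraries. Most of the moves came with another DMSO reference, 9 of 24 with the mean of the 4 libraries and 6 of 24 with the mean of the 3 without the 4 h one, a reference chosen after seeing the data. The summed Nme1 and Nme2 at 4 h changed by 0.43 with the former and 0.20 with the latter. The count of members past 1.3-fold at 4 h (4) became 2 and 0, 5 with a pseudocount of 0.1 or centered on the median, where Nme4 passed the line too, and 3 at 1.5-fold. The count at 2 h (2) became 1 when each pair of libraries was centered on its median, where Nme2 was -0.38 and just short of the line, and 0 at 1.5-fold. Leaving out each DMSO library in turn, 11 to 15 member values lay outside the DMSO range, the most without the 4 h library, and the DMSO mean of Nme1 was between 232 and 299 FPKM. The count outside could only rise or stay, since the range can only narrow. With the trend on GC and length removed, Nme1 at 4 h was 1.52. No paired test over the hours was made, the members having been chosen by these changes. The means over hours pair each HU210 library with DMSO of its hour. Depth per gene is unknown here, so which differences between libraries exceed counting error cannot be told.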
